A study of Mus musculus with 42 samples.

Results

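Granzymes and perforin are the cytotoxic granule proteins of natural killer (NK) cells and cytotoxic T cells. Perforin, encoded by Prf1, forms pores in the membrane of the target cell, and granzymes are serine proteases that enter it with perforin's help. Granzyme B (Gzmb) cleaves after aspartate and activates caspases, granzyme A (Gzma) is a tryptase, and granzyme M (Gzmm) is found mainly in NK cells and other innate-like lymphocytes. Resting mouse NK cells are known to hold granzyme mRNA and to make granzyme B and perforin protein once activated by cytokines. The genes listed were Gzma, Gzmb, Gzmc, Gzmk, Gzmm and Prf1, taken by symbol from the annotation of the array. Of these 6 genes, 4 had a feature, Gzma, Gzmb, Gzmm and Prf1, among 15277 genes measured in all, and no feature carried the symbol Gzmc or Gzmk alone.

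RNA from whole spleens of BALB/c females was hybridised to 42 arrays of 2 colours, each with a universal mouse reference RNA in the other channel. Mice were injected into the peritoneum with 400 µg of CpG oligodeoxynucleotide (ODN 1555 and 1466), an agonist of the receptor TLR9, or with control ODN (1612 and 1471), or were left untreated, and their age is not given here. CpG spleens were taken at 3, 9, 24 and 72 h and on days 5, 7, 9 and 14, and control ODN spleens at 3 h, with 4 arrays a group, beside 6 untreated arrays, all described as independent biological replicates. Each level below is a log2 ratio of spleen over reference, so levels of different genes cannot be set against each other. A difference is a log2 difference of group means with its standard error from limma, and a gene was called at an adjusted p below 0.05 over all genes tested. In whole spleen, fewer cells of a type and less RNA per cell cannot be told apart.

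The promoters of Gzmb, Gzma and Prf1 are shown because these genes took different courses: Gzmb changed early and most, Gzma later and less, and Prf1 was not called. Each window runs from 250 bases before to 50 bases after the start of the gene in RefSeq (GRCm38.p6), 5′ to 3′ on the strand of the gene. Gzmb is at chr14:56262285-56262584 (minus strand), Gzma at chr13:113100932-113101231 (minus strand) and Prf1 at chr10:61297586-61297885 (plus strand). Capitals mark matches on either strand to 6 motifs: TGANTCA (AP-1), TGTGGT (Runx), TTCNNNGAA (GAS, bound by STAT factors), AGGTGT (T-box), TGACGTCA (CRE) and ISRE, the interferon response element, searched as GAAA followed after 2 bases by GAAA.
Gzmb: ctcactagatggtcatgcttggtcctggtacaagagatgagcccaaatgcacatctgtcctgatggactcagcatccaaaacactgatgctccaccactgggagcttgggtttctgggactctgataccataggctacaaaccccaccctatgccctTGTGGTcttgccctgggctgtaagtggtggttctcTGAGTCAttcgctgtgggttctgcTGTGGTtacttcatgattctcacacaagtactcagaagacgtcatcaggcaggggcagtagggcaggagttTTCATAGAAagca
Gzma: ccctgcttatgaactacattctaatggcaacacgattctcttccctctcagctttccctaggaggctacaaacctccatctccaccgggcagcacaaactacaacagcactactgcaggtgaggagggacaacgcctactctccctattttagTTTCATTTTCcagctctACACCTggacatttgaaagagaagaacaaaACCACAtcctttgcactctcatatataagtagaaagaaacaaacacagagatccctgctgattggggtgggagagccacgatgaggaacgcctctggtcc
Prf1: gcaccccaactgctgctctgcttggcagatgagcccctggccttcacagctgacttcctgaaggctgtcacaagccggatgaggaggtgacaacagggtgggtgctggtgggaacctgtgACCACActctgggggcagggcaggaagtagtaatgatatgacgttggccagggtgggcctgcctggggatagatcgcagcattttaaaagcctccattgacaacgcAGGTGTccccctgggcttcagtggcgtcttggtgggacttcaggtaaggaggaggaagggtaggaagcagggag

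In the Gzmb window AP-1 matched at -58, Runx at -93 and -34 and GAS at 38, counted from the start of the gene. In the Gzma window ISRE matched at -97, T-box at -80 and Runx at -50. In the Prf1 window Runx matched at -130 and T-box at -24. No matches overlapped, and CRE had none. Gzmm, whose promoter is not shown, had Runx at -247 and GAS at -86 in its window at chr10:79688770-79689069. Its window at chr10:79693576-79693875 had no match. GAS was therefore matched in Gzmm as well as in Gzmb. Among 32851 promoters of this length, 7.81% held AP-1, 16.8% Runx, 3.44% ISRE, 8.3% GAS, 13.7% T-box and 1.79% CRE. The motifs were chosen with these sequences in view, and a match describes letters, not binding.

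Gzmb rose early and stayed high for 3 days after CpG. At 3 h its 4 arrays read 4.07, 5.82, 5.30 and 5.24, against 1.70, 2.09 and 3.01 as the lowest, median and highest of the 6 untreated arrays. At 9 h they read 5.67, 5.77, 5.70 and 4.35. All of these lay above every untreated array. At 24 h they read 4.43, 5.50, 4.84 and 4.47, and at 72 h 4.79, 4.88, 5.13 and 4.68, again without overlap. The rise over untreated was 2.84 ± 0.30 at 3 h, or 7.14-fold (adjusted p = 2.16e-09, limma), and 3.10 ± 0.30 at 9 h, or 8.57-fold (adjusted p = 4.42e-10). It was 2.54 ± 0.30 at 24 h (adjusted p = 7.59e-08) and 2.60 ± 0.30 at 72 h (adjusted p = 9.56e-08).

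Between 72 h and day 5 Gzmb fell, and by the last days it lay under the untreated level. On day 5, 3 arrays had a value, 2.83, 3.26 and 1.74, and replicate 3 had none. The day 5 level was -2.26 ± 0.35 relative to 72 h (adjusted p = 0.000230, limma), and 0.34 ± 0.33 relative to untreated (95% interval -0.33 to 1.00, adjusted p = 0.459). On day 7 the arrays read 1.51, 1.66, 1.42 and 1.47, on day 9 1.28, 1.19, 0.80 and 1.71, and on day 14 0.99, 1.52, 1.27 and 1.08. All arrays of days 7 and 14 lay below the lowest untreated array, and the highest of day 9 lay just above it. The fall against untreated was called on day 9 (-1.02 ± 0.30, adjusted p = 0.0187, limma) and day 14 (-1.06 ± 0.30, adjusted p = 0.0356), and on day 7 the value was -0.76 ± 0.30, adjusted p = 0.0814. The day 9 call ended without untreated replicate 3 or 4 or CpG replicate 3 (-0.89 to -0.87), and the day 14 call without untreated replicate 3 or 4 or any 1 of the 4 CpG arrays (-1.16 to -0.91). The day 14 call also ended with arrays scaled to equal spread (-1.38), without arrays lacking over 1000 values (-1.24), with no moderation and with runs as a random block, so that it was lost in 10 of 23 settings. Without untreated replicate 2, day 7 was called (-0.87, adjusted p = 0.0498, limma). So it was under quantile normalization (-0.92), in a fit of the groups compared only (-0.76) and with array weights (-0.84), but not in 19 of 23 settings. Day 7 against day 5 (-1.10 ± 0.35, adjusted p = 0.0716) was called without day 5 replicate 4 (-1.53, adjusted p = 0.0285). That step was also called without arrays lacking over 1000 values (-1.53) and with array weights (-1.40), but not in 18 of 21 settings.

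**Figure D1:**
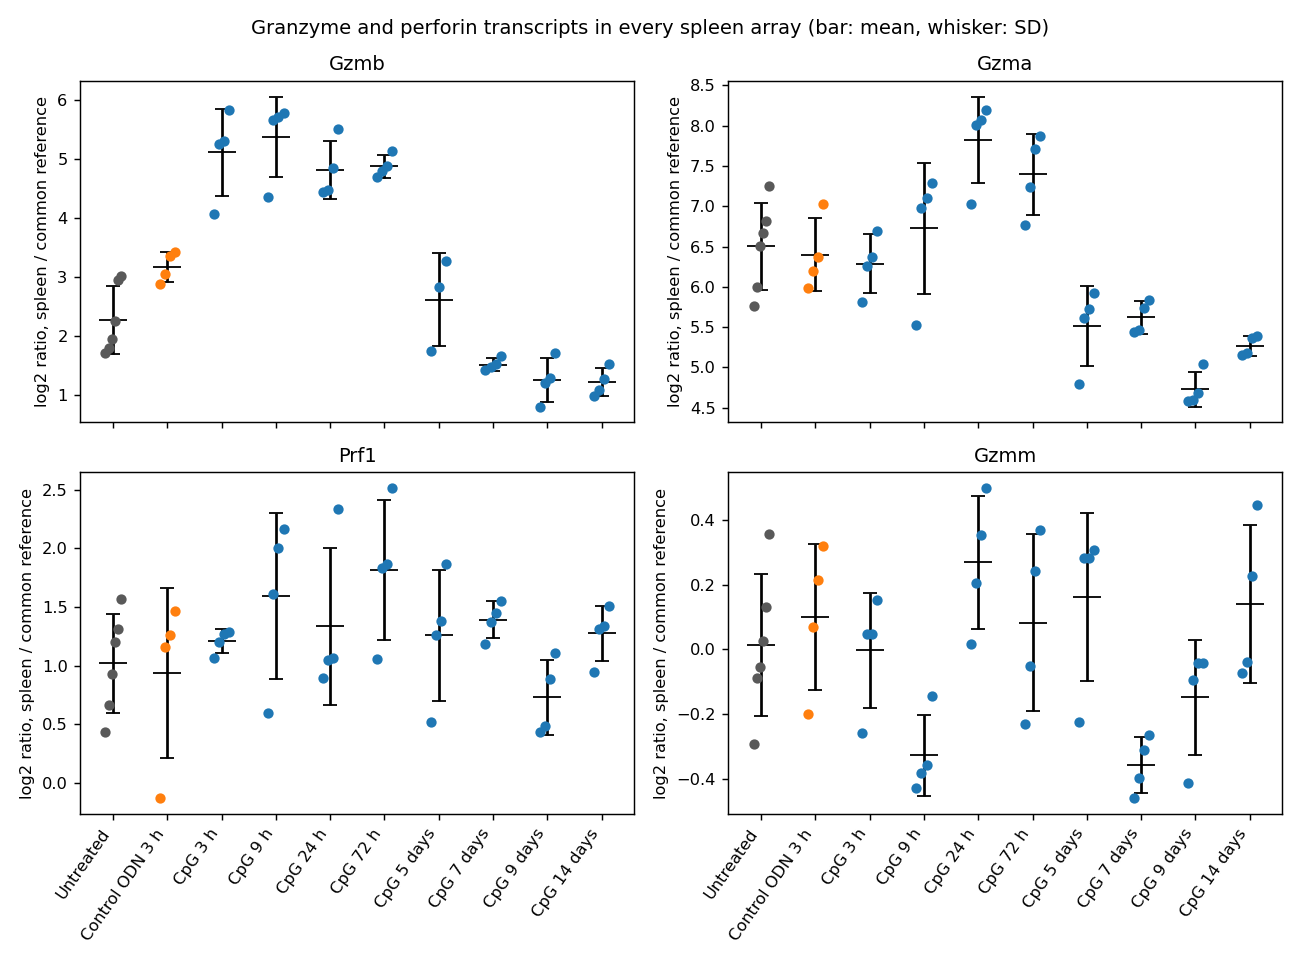
Log2 ratio of spleen over reference (y axis) for Gzmb, Gzma, Prf1 and Gzmm in every array, by group (x axis), from untreated and control ODN to the CpG times in order, each panel on its own scale. Points are arrays, and the group mean is shown with 1 SD (untreated n = 6, Gzmb on day 5 n = 3, otherwise n = 4). Gzmb from 3 h to 72 h lies between 4.07 and 5.82, above all untreated arrays.

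After control ODN, Gzmb read 3.41, 3.05, 3.35 and 2.88 at 3 h, between the CpG and the untreated levels. Control ODN exceeded untreated by 0.90 ± 0.30 (95% interval 0.29 to 1.51, adjusted p = 0.0748, limma), which was not called, and the groups overlapped. Without untreated replicate 3 or 4 or control replicate 4 it was called (1.00 to 1.05). CpG exceeded control ODN at 3 h by 1.94 ± 0.33, or 3.83-fold (adjusted p = 3.52e-05), with no overlap.

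Gzma rose later and less than Gzmb. At 24 h its arrays read 8.07, 8.19, 8.01 and 7.03, against 5.76, 6.59 and 7.25 as the lowest, median and highest of untreated. At 72 h they read 7.88, 7.71, 6.76 and 7.24. At 24 h 3 of 4 arrays lay above every untreated array and at 72 h 2 of 4, and the others lay within the untreated range. The rise was 1.32 ± 0.29 at 24 h, or 2.50-fold (adjusted p = 0.00161, limma), and 0.90 ± 0.29 at 72 h (adjusted p = 0.0307). At 3 h (-0.22 ± 0.29, adjusted p = 0.740) and 9 h (0.22 ± 0.29, adjusted p = 0.762) no difference was called. The call at 24 h ended with arrays scaled to equal spread (0.88, adjusted p = 0.240) and with runs as a fixed block (1.58, adjusted p = 0.361). That at 72 h ended without untreated replicate 5 or 6 or CpG replicate 1 or 2 (0.74 to 0.80) and under 5 other settings. The step from 9 h to 24 h was 1.10 ± 0.31, adjusted p = 0.0224, and it was not called without CpG 9 h replicate 4 or CpG 24 h replicate 1, 2 or 3 (0.70 to 1.04). It also ended with arrays scaled (0.75, adjusted p = 0.387), in a fit of the groups compared only and with runs as a fixed block.

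From day 5 on, Gzma was below untreated. Its arrays read 5.72, 5.93, 4.79 and 5.61 on day 5 and 5.44, 5.74, 5.83 and 5.46 on day 7. They read 4.68, 4.60, 4.59 and 5.04 on day 9 and 5.36, 5.38, 5.15 and 5.18 on day 14. Every array of days 9 and 14 lay below every untreated array, whereas days 5 and 7 overlapped them. The day 5 level was -1.88 ± 0.31 relative to 72 h (adjusted p = 0.000501, limma). Against untreated, Gzma was lower on day 5 (-0.99 ± 0.29, adjusted p = 0.00809), day 7 (-0.88 ± 0.29, adjusted p = 0.0309), day 9 (-1.77 ± 0.29, adjusted p = 7.11e-05) and day 14 (-1.23 ± 0.29, adjusted p = 0.0113). Leaving out the arrays that lack over 1000 values ended the calls of day 5 (-0.82, adjusted p = 0.111) and day 14 (-1.39, adjusted p = 0.0658). The day 5 call also ended without CpG replicate 3 (-0.75, adjusted p = 0.0647), and the day 7 call without untreated replicate 1, 2 or 4 or CpG replicate 1, 2 or 4 (-0.92 to -0.73), under quantile normalization and with robust moderation. Control ODN gave 7.03, 6.37, 6.20 and 5.98, a difference from untreated of -0.11 ± 0.29, adjusted p = 0.859.

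Gzmm stayed near the untreated level. Its group means ran from -0.36 on day 7 to 0.27 at 24 h, beside 0.0132 ± 0.22 (SD, n = 6) in untreated spleens, and no CpG time was called against untreated by limma over all arrays weighted equally. The farthest were day 7 (-0.37 ± 0.14, 95% interval -0.65 to -0.09, adjusted p = 0.0642, limma) and 9 h (-0.34 ± 0.14, 95% interval -0.62 to -0.06, adjusted p = 0.143). With array weights 72 h (0.29, adjusted p = 0.0302, beside 0.07 ± 0.14) and day 7 (-0.32, adjusted p = 0.0408) were called. Without untreated replicate 3 day 7 was called (-0.43, adjusted p = 0.0367). Between times, the arrays read 0.35, 0.21, 0.50 and 0.02 at 24 h, against -0.43, -0.38, -0.36 and -0.14 at 9 h, with no overlap. That step was 0.60 ± 0.15, adjusted p = 0.0109 (limma), which was not called without CpG 24 h replicate 3 (0.52, adjusted p = 0.0696) or in a fit of the groups compared only. On day 7 they read -0.40, -0.31, -0.27 and -0.46, against 0.31, 0.28, -0.23 and 0.28 on day 5, also with no overlap. This step was -0.52 ± 0.15, adjusted p = 0.0484, and it was not called without any 1 of the 4 arrays of day 7 or replicate 1, 2 or 4 of day 5 (-0.55 to -0.47), nor in 8 other settings, so that it was lost in 15 of 23.

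Prf1 was not called at any time by limma with all arrays weighted equally. At 72 h its arrays read 1.83, 2.51, 1.05 and 1.86, against 0.43, 1.07 and 1.56 as the lowest, median and highest of untreated. At 9 h they read 2.16, 2.00, 1.61 and 0.59. At each of these times 3 of 4 arrays lay above all untreated arrays. The difference was 0.80 ± 0.30 at 72 h (95% interval 0.19 to 1.40, adjusted p = 0.0672, limma) and 0.57 ± 0.30 at 9 h (95% interval -0.04 to 1.18, adjusted p = 0.291). At 72 h it was called with arrays scaled (0.95, adjusted p = 0.0452), with array weights (1.23, adjusted p = 7.92e-05), and without untreated replicate 1 (0.90) or CpG replicate 3 (1.05). At 9 h it was called with array weights (0.80, adjusted p = 0.0435). At 3 h, when Gzmb was already high, Prf1 read 1.21, 1.29, 1.27 and 1.07, all within the untreated range (0.19 ± 0.30, 95% interval -0.42 to 0.80).

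**Figure D2:**
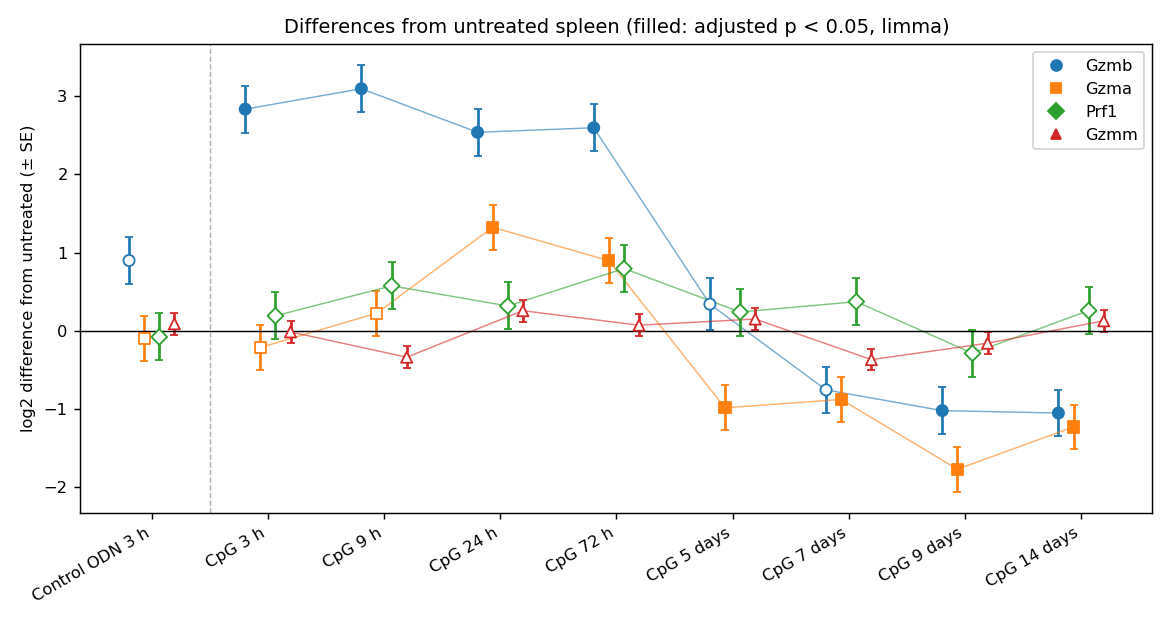
Log2 difference from untreated spleen (y axis, ± SE from limma) for control ODN at 3 h and the CpG times in order (x axis), with filled symbols at an adjusted p below 0.05. Gzmb lies between 2.54 and 3.10 from 3 h to 72 h, Gzma peaks at 1.32 at 24 h, both lie below 0 from day 7 on, and Prf1 and Gzmm have no filled symbol.

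Of the 4 measured genes, Gzmb alone was called at 3 h, higher and without overlap, beside 11.6% of all genes tested (7.7% higher, 3.93% lower), and 13.6% of genes had groups without overlap. At 9 h Gzmb alone was called, higher and without overlap, beside 8.52% of all genes tested (5.07% higher, 3.45% lower), and 8.88% of genes had groups without overlap. At 24 h Gzmb and Gzma were called higher, Gzmb without overlap, beside 10.9% of all genes tested (8.03% higher, 2.87% lower), and 8.09% of genes had groups without overlap. At 72 h Gzmb and Gzma were called higher, Gzmb without overlap, beside 15% of all genes tested (8.94% higher, 6.01% lower), and 11.8% of genes had groups without overlap. On day 5 Gzma was called lower, with overlap, beside 30.9% of all genes tested (17.5% higher, 13.4% lower), and 23.2% of genes had groups without overlap. On day 7 Gzma was called lower, and Gzmb, not called, did not overlap, beside 15.6% of all genes tested (8.68% higher, 6.89% lower), and 16.3% of genes had groups without overlap. On day 9 Gzmb and Gzma were called lower, Gzma without overlap, beside 13.5% of all genes tested (8.4% higher, 5.12% lower), and 13.2% of genes had groups without overlap. On day 14 Gzmb and Gzma were called lower, both without overlap, beside 4.54% of all genes tested (2.77% higher, 1.77% lower), and 7.63% of genes had groups without overlap. For control ODN none was called by limma and 1, Gzmb, had an unadjusted p under 0.05, beside 3.52% of all genes tested (2.45% higher, 1.07% lower), and 3.77% of genes had groups without overlap. For CpG against control ODN at 3 h Gzmb was called higher, without overlap, beside 20.7% of all genes tested (9.23% higher, 11.5% lower), and 20.1% of genes had groups without overlap.

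Between consecutive CpG times, none of the 4 genes was called at 9 h against 3 h, beside 1.44% of all genes tested (0.291% higher, 1.15% lower), and 7.36% of genes had groups without overlap. At 24 h against 9 h Gzma and Gzmm were called higher, Gzmm without overlap, beside 9.7% of all genes tested (6.39% higher, 3.31% lower), and 9.62% of genes had groups without overlap. At 72 h against 24 h none was called, beside 5.5% of all genes tested (3.6% higher, 1.9% lower), and 7.59% of genes had groups without overlap. On day 5 against 72 h Gzmb and Gzma were called lower, both without overlap, beside 3.42% of all genes tested (1.24% higher, 2.18% lower), and 10.1% of genes had groups without overlap. On day 7 against day 5 Gzmm was called lower, and Gzmm and Gzmb did not overlap, beside 3.22% of all genes tested (1.26% higher, 1.96% lower), and 13.8% of genes had groups without overlap. On day 9 against day 7 none was called, and Gzma and Prf1 did not overlap, beside 4.93% of all genes tested (3.03% higher, 1.9% lower), and 16.4% of genes had groups without overlap. The Gzma step on day 9 (-0.89 ± 0.31, adjusted p = 0.0839, limma) was called under quantile normalization, array weights and a fit of the groups compared only (-1.31, -0.95 and -0.89), and the Prf1 step (-0.66 ± 0.33, adjusted p = 0.236) in that last fit (adjusted p = 0.0315). On day 14 against day 9 none was called, and Gzma did not overlap, beside 9.68% of all genes tested (3.99% higher, 5.69% lower), and 17.3% of genes had groups without overlap. The Gzma step on day 14 (0.54 ± 0.31, adjusted p = 0.281) was called in the fit of the groups compared only (adjusted p = 0.0396). By the moderated F test over the 8 CpG times 62.8% of 14557 genes varied, among them Gzmb (adjusted p = 2.16e-15), Gzma (3.61e-10) and Gzmm (0.00228), while Prf1 was not called (0.147).

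Whether Gzmb moved by another amount than the other 3 genes was tested within arrays. The Gzmb ratio minus that of the other gene was taken in each array, and each group was set against untreated by a 2-sided exact permutation test, 27 tests adjusted together, of which 17 had an adjusted p below 0.05. The smallest p possible was 0.00952, or 0.0238 on day 5. Relative to Gzma, Gzmb gained 3.05 ± 0.40 at 3 h and 2.88 ± 0.31 at 9 h (exact adjusted p = 0.0234 each). The gain on Gzma was 1.22 ± 0.39 at 24 h (exact adjusted p = 0.0343), 1.70 ± 0.43 at 72 h (exact adjusted p = 0.0234) and 1.00 ± 0.34 after control ODN (exact adjusted p = 0.0343). On day 9 Gzma was lower by more than Gzmb (0.75 ± 0.31, exact adjusted p = 0.0454), and on days 7 and 14 the test gave 0.12 ± 0.32 (exact adjusted p = 0.813) and 0.18 ± 0.32 (exact adjusted p = 0.761). Relative to Prf1, Gzmb gained 2.65 ± 0.48 at 3 h (exact adjusted p = 0.0234), and the value was -1.13 ± 0.32 on day 7 (exact adjusted p = 0.0234) and -1.31 ± 0.38 on day 14 (exact adjusted p = 0.0454). Relative to Gzmm it was 3.44 ± 0.51 at 9 h (exact adjusted p = 0.0234) and -1.18 ± 0.36 on day 14 (exact adjusted p = 0.0343).

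Gzmb lies in a cluster of protease genes on chromosome 14, next to Gzmc in the RefSeq order, and measured genes of the cluster took different courses. Gzmd, another granzyme, read 0.51, 0.71 and 0.41 in the 3 arrays with a value at 3 h after CpG, all above the untreated range of -1.39 to -0.89. It rose by 1.64 ± 0.25, adjusted p = 3.43e-06 (limma) at 3 h, 0.77 ± 0.22, adjusted p = 0.0216 at 9 h and 0.59 ± 0.22, adjusted p = 0.0416 on day 5, and CpG exceeded control ODN by 1.35 ± 0.27, adjusted p = 0.000305. Gzme was lower on day 5 (-0.59 ± 0.22, adjusted p = 0.0398), and Gzmf was not called where it was tested. These granzymes are close paralogs, and whether their features share signal was not tested.

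Genes of myeloid proteases in the same cluster peaked later. Ctsg, the neutrophil protease cathepsin G, rose by 2.09 ± 0.34, adjusted p = 4.50e-05 (limma) at 72 h and 3.30 ± 0.34, adjusted p = 6.32e-09 on day 9. Mcpt8, a basophil protease, rose by 2.93 ± 0.28, adjusted p = 4.07e-09 on day 9, when Gzmb was lower. Mcpt4, a mast cell chymase, was higher at 72 h (0.67 ± 0.22, adjusted p = 0.0348) and lower on day 14 (-1.23 ± 0.24, adjusted p = 0.00311).

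**Figure D3:**
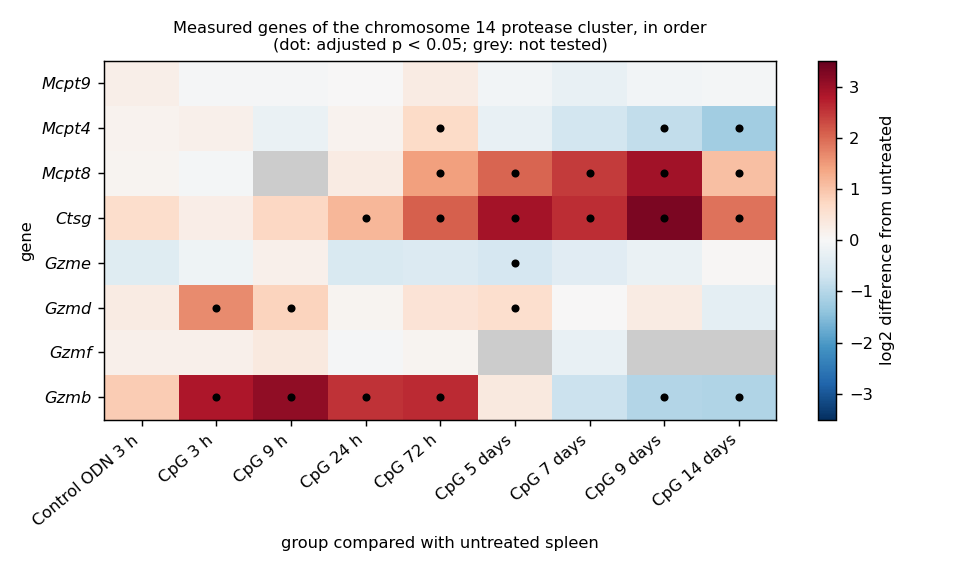
Log2 difference from untreated spleen (colour, limited to 3.5 either way) for measured genes of the chromosome 14 protease cluster in RefSeq order (y axis), for control ODN at 3 h and the CpG times in order (x axis), with marks at an adjusted p below 0.05. Gzmb is at 2.54 to 3.10 from 3 h to 72 h, and Ctsg and Mcpt8 reach 3.30 and 2.93 on day 9, when Gzmb is at -1.02.

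Serpins that inhibit granzyme B, or are related to those that do, rose early too. At 3 h 4 of 6 tested were called higher and 0 lower, beside 7.7% of all genes higher, with a median of 1.05 beside -0.02 over all genes. Serpinb9, the intracellular inhibitor of granzyme B, rose by 1.43 ± 0.18, adjusted p = 6.30e-08 (limma), and its relative Serpinb9b by 1.45 ± 0.30, adjusted p = 0.000507. Serpina3n, a secreted serpin, rose by 2.89 ± 0.25, adjusted p = 1.47e-11, and Serpinb6b by 0.68 ± 0.18, adjusted p = 0.00612. At both 24 h and 72 h Serpina3n, Serpinb9 and Serpinb9b were called higher, beside 8.03% and 8.94% of all genes. Serpinb9b was below untreated on day 9 (-1.12 ± 0.30, adjusted p = 0.0101) and day 14 (-1.04 ± 0.30, adjusted p = 0.0368), the days on which Gzmb was called lower.

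Genes that load, process and release granules rose in part, and most are used by other spleen cells as well. At 3 h 5 of 19 were called higher and 0 lower, among them Rab27a (1.01 ± 0.17), Ap3b1 (0.91 ± 0.13) and Stx11 (0.82 ± 0.15), which serve granule traffic and fusion, and Srgn (0.77 ± 0.14), the proteoglycan that packs granzymes. Against control ODN at 3 h 6 were higher and 3 lower, with differences from -1.38 to 0.95, beside 9.23% of all genes higher and 11.5% lower. At 24 h 7 were higher and 0 lower, among them Ctsc (1.10 ± 0.23), which activates progranzymes, and Cst7 (0.72 ± 0.18), an inhibitor of cathepsins. At 72 h 6 were higher and 1 lower, with Ctsc at 1.11 ± 0.23, the granule protein gene Nkg7 at 1.09 ± 0.26 and Lyst, a regulator of lysosome size, at -0.61 ± 0.14. The medians were 0.16, 0.42 and 0.33 at 3 h, 24 h and 72 h, beside -0.02, 0.02 and 0.02 over all genes. Of all genes 7.7%, 8.03% and 8.94% were called higher at these times, and 3.93%, 2.87% and 6.01% lower.

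Of 8 cytokines known to induce granzymes, 3 were called higher and 0 lower at 3 h, with a median of 0.26 and 7.7% of all genes called higher: Il12b (3.67 ± 0.18), Il15 (1.96 ± 0.17) and Il18 (1.54 ± 0.21). Against control ODN, where 7 could be tested and Il12b was not among them, 2 were higher, beside 9.23% of all genes. On day 9, when Gzmb and Gzma were called lower, 3 of 8 cytokines were higher and 0 lower, by at most 0.99. Over all genes 8.4% were called higher on that day. Il15ra, which presents interleukin 15, was the 1 of 13 receptor genes called at 3 h (1.01 ± 0.10, adjusted p = 8.72e-10, limma), a share close to the 7.7% called higher over all genes. On day 7 4 of 13 receptors were called lower and 0 higher, beside 6.89% lower over all genes. They were Il18r1 (-1.24 ± 0.27), Il18rap (-0.76 ± 0.19), Il2rb (-0.74 ± 0.24) and Ifngr2 (-0.56 ± 0.14). On day 9 3 of 13 receptors were higher and 1 lower, beside 8.4% higher and 5.12% lower over all genes.

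Of the transcription factors of cytotoxic cells 5 of 14 were higher and 0 lower at 3 h, led by Batf (1.61 ± 0.27), Id2 (1.42 ± 0.14), Prdm1 (0.73 ± 0.19) and Irf4 (0.67 ± 0.21). Over all genes 7.7% were called higher at that time. At 72 h, when Gzmb was still called higher, 0 of 14 were higher and 4 lower, with a median of -0.19, beside 6.01% of all genes lower. On day 5 8 of 14 were lower, beside 13.4% of all genes. Eomes was the 1 of 14 called on day 9, higher (0.93 ± 0.19, adjusted p = 0.00127, limma), a share close to the 8.4% called higher over all genes. Tbx21, which encodes T-bet, was the 1 of 14 called on day 14, lower (-0.70 ± 0.16, adjusted p = 0.00775), beside 1.77% lower over all genes. Death ligands and their receptors, the other route of killing, had 5 of 8 higher and 0 lower at 3 h, beside the same 7.7% higher over all genes. They were led by Tnf (2.25 ± 0.22), Fas (1.84 ± 0.19), Tnfsf10 (1.44 ± 0.17) and Tnfrsf1a (0.69 ± 0.20). Fasl was higher at 72 h (0.87 ± 0.21, adjusted p = 0.00591) and lower on day 14 (-0.71 ± 0.21, adjusted p = 0.0473).

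Markers of NK cells had the most calls at 72 h. Of 17 tested 2 were higher at 3 h, Xcl1, a chemokine of NK and CD8 T cells (1.83 ± 0.35), and the receptor gene Klrk1 (0.75 ± 0.17), with a median of -0.07. Over all genes 7.7% were called higher at 3 h. At 24 h 5 were higher and 0 lower, and at 72 h 11 were higher and 0 lower, with a median of 0.81, led by Xcl1 (1.95 ± 0.35), Cd160 (1.83 ± 0.30), Klra3 (1.16 ± 0.17) and Klrk1 (1.03 ± 0.17). The shares of all genes called higher were 8.03% at 24 h and 8.94% at 72 h. On day 5, when Gzmb and Gzma had fallen from their 72 h levels, 3 were higher and 3 lower, with a median of -0.06. These counts are near the shares over all genes, 17.5% higher and 13.4% lower. Among the called genes were Xcl1 (1.38 ± 0.35), Cd160 (1.22 ± 0.30), Klra4 (-1.05 ± 0.20) and Klrb1c (-0.96 ± 0.24). Differences over the list ran from -1.21 to 1.38. On day 9 2 were higher and 3 lower, beside 8.4% higher and 5.12% lower over all genes. Cd7 was at 1.21 ± 0.18, Itgam, also a myeloid gene, at 0.97 ± 0.18, Ncr1, which encodes NKp46, at -1.05 ± 0.31 and Klra4 at -0.93 ± 0.20. The mean of the NK list per array ran from 1.91 to 2.57 at 24 h, 2.03 to 2.70 at 72 h, 1.13 to 1.86 on day 5 and 1.58 to 1.99 on day 9, against 1.18 to 1.92 in untreated spleens. Its part in the Gzma and Gzmb levels was not tested.

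The list of CD8 T cell markers holds mostly genes of T cells at large, Cd3g and Cd3e among them, so it does not single out CD8 T cells. On day 5 7 of 12 were called lower and 1 higher, when 13.4% of all genes were lower and 17.5% higher. Cd3g was at -1.54 ± 0.18 and Cd3e at -1.24 ± 0.17. On day 14 0 of these 12 genes were called. Their array mean ran from 0.85 to 1.18 on day 5, against 1.25 to 1.77 in untreated spleens. Neutrophil granule genes were higher in 11 of 12 on day 9 (8.4% of all genes) and 12 of 12 on day 14 (2.77% of all genes). Mitotic genes were higher in 11 of 15 at 72 h (8.94% of all genes) and 15 of 15 on day 7 (8.68% of all genes). Pancreas acinar genes, of which 0 of 9 were called by limma (2 with an unadjusted p under 0.05 on day 14), had an array mean of 0.28 to 1.29 on day 14, against 0.47 to 5.04 in untreated spleens. Their part in the Gzma and Gzmb levels was not tested.

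**Figure D4:**
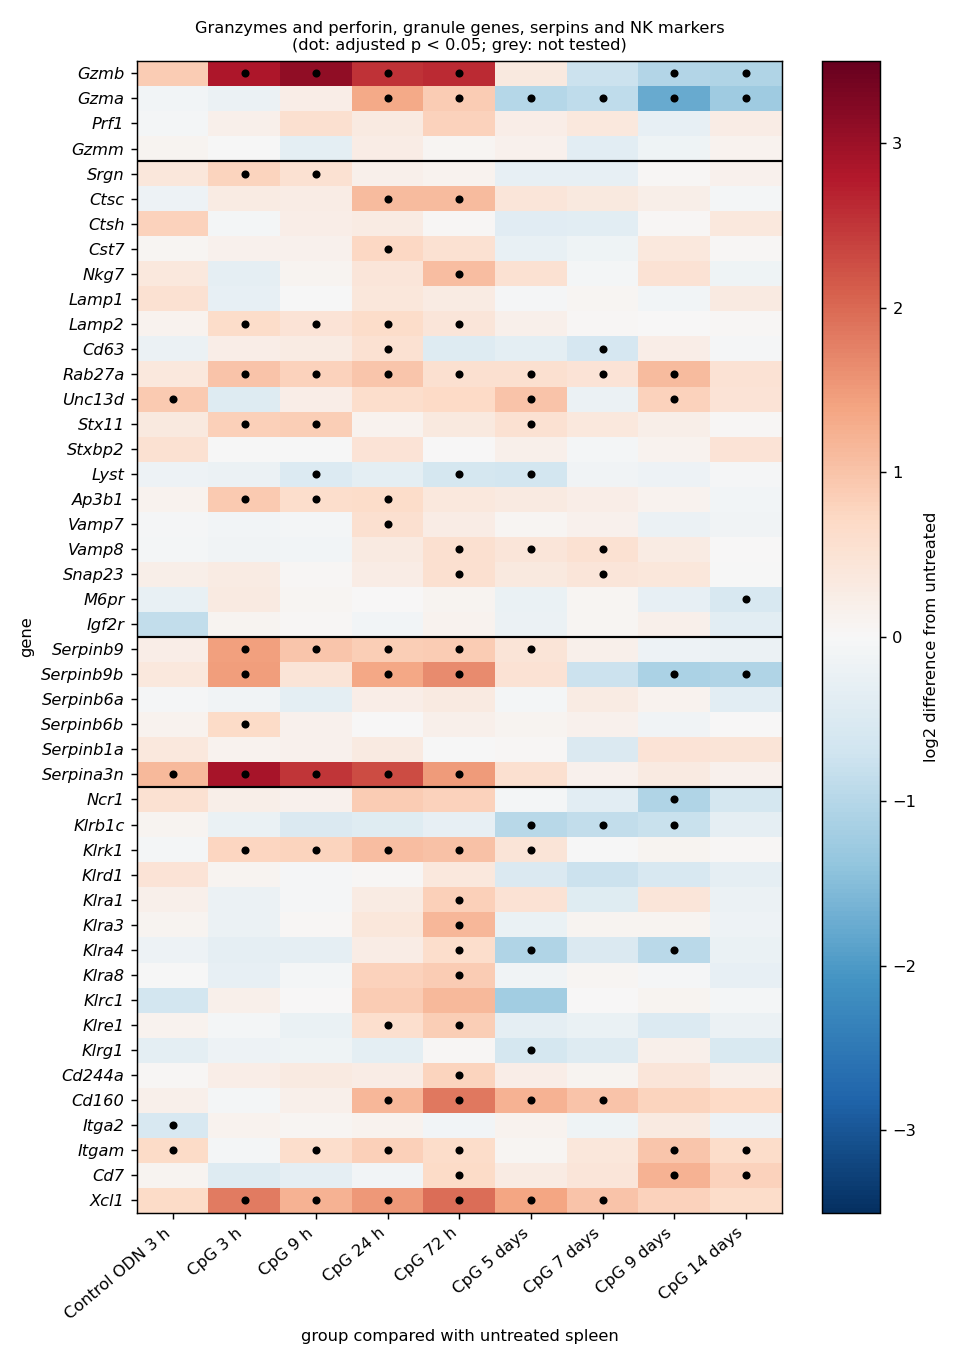
Log2 difference from untreated spleen (colour, limited to 3.5 either way) for the measured granzyme and perforin genes, granule genes, serpins and NK cell markers (y axis), for control ODN at 3 h and the CpG times in order (x axis), with marks at an adjusted p below 0.05. Serpinb9 and Serpina3n are marked from 3 h to 72 h like Gzmb. At 72 h 11 of the 17 NK markers are marked, beside 15% of all genes called.

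The genes most like each of the 4 over the arrays were ranked by Pearson r, a description over arrays that share groups and the reference RNA. For Gzmb (41 arrays) they were Ms4a4d (0.915), Plac8 (0.910) and Phf11d (0.909). For Gzma (42 arrays) they were Klra16 (0.858), Ncr1 (0.856) and Hsd17b12 (0.838). For Gzmm they were Zfp280b (0.723), Cd1d1 (0.708) and Armc10 (0.688), and for Prf1 Srd5a3 (0.668), Vmn1r205 (0.654) and Isoc1 (0.642). Between Gzma and Gzmb r was 0.750, and between Gzmb and Prf1 0.334.

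The database numbers of the arrays fall into 10 runs, and most CpG times share none with untreated arrays. The labels do not say what these numbers mark, so whether a run is a batch of hybridisation or of upload is not known. In the run shared at 3 h, 2 CpG arrays exceeded 1 untreated array by 3.57 in Gzmb, and the difference in Gzma was -0.13. In the run that holds control ODN, Gzmb was 1.70 relative to control ODN at 72 h, -1.66 on day 7 and -1.95 on day 14. Gzma there was 1.00 at 72 h, -0.78 on day 7 and -1.13 on day 14. With runs as a fixed block, the Gzmb difference from untreated was 3.57 at 3 h, 4.00 at 9 h and 3.56 at 24 h. Each of these values rests on the same 1 untreated array, replicate 2 (1.70), the lowest untreated array in Gzmb. The values at 9 h and 24 h reach it only through the CpG 3 h arrays, so they are no independent check. From 72 h on, run and group cannot be told apart against untreated. The same holds for control ODN against untreated and for CpG against control ODN at 3 h. It also holds for every step between consecutive CpG times after 24 h, among them the fall from 72 h to day 5.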

How the data were processed

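The authors deposited 1 table of log2 ratios, Cy5 spleen over Cy3 reference cDNA per the labels, for 30601 features on 42 arrays. How images were read, normalized and filtered is not given in the sources used. Base 2 and the direction were inferred from the range (-6.86 to 9.78) and from spleen genes high in untreated arrays (Cd79a 5.64 ± 0.55, H2-Aa 6.79 ± 0.12, SD, n = 6). Array medians ran from -0.014 to 0.019, and 173 to 1740 features an array had no value. Precision is limited by how many arrays there are.

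A gene is the mean of the features with its symbol alone (23485 features, 15277 genes), and 179 features with several symbols and 6937 with none were left out. All 42 arrays entered 1 limma 3.58.1 fit (R 4.3.3) with 10 groups and empirical Bayes spread, with 2-sided p-values adjusted by Benjamini-Hochberg within a comparison. A test needed at least 3 values in each group, a filter added to the written design. The code was tested on simulated data. Exact tests used scipy 1.17.1 and figures matplotlib 3.10.9 (python 3.11.15).

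The members and gene lists were chosen with earlier results of these data known. Named genes are the members, up to 4 called genes of each list with the largest difference in a comparison, and the 3 genes most like each member. The chromosome 14 neighbours of Gzmb were added for their position, with values seen. Alternatives changed centring, scaling, feature averaging, missing values, spread, weights, arrays, thresholds and blocks. The labels do not say that equal replicate numbers mark a shared animal or batch, so the fit has no replicate block. Runs are arrays whose database numbers lie within 12 of the next.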

Additional observations from a re-analysis of the deposited data

Results flagged for a closer look

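Over the 4 genes, 39 groups of 4 to 6 arrays were examined for 1 array far from the rest, and 5 were found, where chance gives about 1 in 20. Gzmb at 9 h read 4.346 in replicate 4, with the nearest other array at 5.665, and without it the rise over untreated was 3.44, adjusted p = 5.89e-11 (limma). That array was also the lowest of its group in Gzma and Prf1. Gzma at 24 h read 7.029 in replicate 4, with the nearest other at 8.006, and without it the rise was 1.59, adjusted p = 0.000307. Prf1 at 24 h read 2.331 in replicate 1, with the nearest other at 1.069, and without it the difference was -0.02, adjusted p = 0.986. Gzmm on day 5 read -0.225 in replicate 3, with the nearest other at 0.282, on the array that lacks a Gzmb value and has the lowest Gzma and Prf1 values of its group. Gzmm on day 9 read -0.411 in replicate 2, with the nearest other at -0.096, and without it the difference was -0.07, adjusted p = 0.814.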

How the results depend on the processing

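Of the tests of the 4 genes, 12 of 32 over the CpG times were called, 0 of 4 for control ODN, 1 of 4 for CpG against control ODN, 5 of 28 between consecutive times and 3 of 4 by the F test. Leaving out 1 array gave 9 to 13, 0 to 1, 1 to 1, 3 to 6 and 3 to 4, and 11 to 17 of the exact tests. With genes on all 42 arrays, which drops Gzmb, 6 of 24 and 0 of 3 were called, as with runs as a random block, which left 3 of 21 consecutive calls; put back after seeing the data, Gzmb made this 11 of 32. A fixed run block, which could be fitted against untreated for 3 h, 9 h and 24 h, gave 0 of 9 and 1 of 6 consecutive, and 3 of 12 and 1 of 8 with Gzmb, also chosen after seeing the data. Against untreated, the fixed run block rests on 1 untreated array. An adjusted p below 0.01 left 7 and 2, and scaling or a minimum difference of 1 left 3 consecutive calls. Over 180 same-number pairs of arrays the correlations of deviations from group means ran from -0.373 to 0.520, and 63 were over 0.1. Their median was 0.026, against -0.016 for pairs with other numbers. Of 42 arrays 20 correlated best with an array of their own number, and the share that chance would give was not computed. Whether equal numbers share a batch was not tested, and the main fit does not pair the arrays. The replicate block gave 11 of 32, with Gzma at 72 h not called (0.59, adjusted p = 0.177, limma). No called difference changed sign. Uncalled ones that did follow: with arrays centred and scaled, Gzma CpG 3 h over Control ODN 3 h was 0.917, Gzma CpG 72 h over CpG 24 h was 0.305. With quantile normalization, Gzma CpG 9 h was -0.0433, Gzma CpG 3 h over Control ODN 3 h was 0.150, Gzmb CpG 72 h over CpG 24 h was -0.0972. Without arrays lacking over 1000 values, Gzma CpG 9 h was -0.0105, Gzmb CpG 72 h over CpG 24 h was -0.0270, Gzma CpG 7 days over CpG 5 days was -0.205, Prf1 CpG 7 days over CpG 5 days was -0.175. With array weights, Gzmm CpG 3 h was 0.0228, Gzma Control ODN 3 h was 0.0192, Prf1 Control ODN 3 h was 0.103, Gzmm CpG 5 days over CpG 72 h was -0.0696, Gzma CpG 7 days over CpG 5 days was -0.00960, Prf1 CpG 7 days over CpG 5 days was -0.0580. With replicate block, Gzma CpG 9 h was -0.0870. With runs as fixed block, Prf1 CpG 3 h was -0.142, Gzmm CpG 24 h was -0.0138, Prf1 CpG 24 h was -0.386. With runs as fixed block, with Gzmb, Prf1 CpG 3 h was -0.142, Gzmm CpG 24 h was -0.0138, Prf1 CpG 24 h was -0.386. Leaving out 1 array turned the sign of these uncalled values, given as ranges: Gzmm CpG 3 h -0.0767 to 0.0695, Gzma Control ODN 3 h -0.318 to 0.0437, Prf1 Control ODN 3 h -0.256 to 0.275, Gzma CpG 3 h over Control ODN 3 h -0.248 to 0.102, Gzmb CpG 9 h over CpG 3 h -0.0852 to 0.603, Gzmb CpG 72 h over CpG 24 h -0.0675 to 0.287, Prf1 CpG 3 h over Control ODN 3 h -0.0850 to 0.446, Gzmm CpG 72 h -0.0255 to 0.173, Gzmm CpG 5 days over CpG 72 h -0.0249 to 0.208, Gzmb CpG 14 days over CpG 9 days -0.180 to 0.124, Prf1 CpG 24 h -0.0163 to 0.463, Gzma CpG 7 days over CpG 5 days -0.134 to 0.245, Prf1 CpG 7 days over CpG 5 days -0.114 to 0.335. The causes were not tested. Over all genes, the count called against untreated ran across settings from 392 to 2739 for CpG 3 h, 142 to 1937 for CpG 9 h, 133 to 2005 for CpG 24 h, 878 to 5794 for CpG 72 h, 2577 to 5810 for CpG 5 days, 1869 to 3778 for CpG 7 days, 1527 to 3046 for CpG 9 days, 82 to 1169 for CpG 14 days, 0 to 1013 for Control ODN 3 h.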
